A study of Mus musculus with 18 samples.

Results

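The miR-221 and miR-222 cluster was followed through 6 treatments of BV-2 cells, an immortalized mouse microglial line. The members were chosen by name: every row of the deposited tables named for mouse miR-221 or miR-222, which gave 6 of 2134 features. They were 2 hairpins, mmu-mir-221 and mmu-mir-222, of 855 hairpins in all, and 4 mature arms, mmu-miR-221-5p, mmu-miR-221-3p, mmu-miR-222-5p and mmu-miR-222-3p, of 1279 mature miRNAs. The prefix mmu, for mouse, is left out from here on. Small RNA was sequenced from 18 samples, with 3 samples in each group. By the study's methods, cannabinoid was present for 6 h at 10 μM and lipopolysaccharide (LPS) for 4 h at 100 ng/ml, and cells given both received the cannabinoid 2 h before LPS. The groups were control cells that received neither (Ctrl), CBD, THC and LPS alone, and the combinations CBD+LPS and THC+LPS. CBD is cannabidiol and THC is tetrahydrocannabinol, and LPS, from the outer membrane of bacteria, activates microglia through the receptor TLR4. All groups came from this immortalized line, which limits them as a model of microglia in tissue. The labels do not say that the 3 samples of a group came from separate cultures, so p-values measure the spread between these samples, which may be technical.

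A microRNA is made from a hairpin in a longer transcript. Drosha releases the hairpin and Dicer cuts it into a duplex, of which the 5p and 3p strands are the arms. Argonaute usually keeps the guide arm, which finds messenger RNAs through its seed, bases 2 to 8, and the opposite arm is mostly degraded. Mir221 and Mir222 lie close together on the X chromosome, are transcribed together, and are best known for repressing the cell cycle inhibitor Cdkn1b (p27) and the receptor Kit through their 3p arms.

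The sequences show what the members share. RefSeq on GRCm38.p6 gave a sequence for 5 of the 6 members, all but miR-222-5p. The arms are printed with the seed in capitals, since the seed decides which arms can be grouped.

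miR-221-3p: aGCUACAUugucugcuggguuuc
miR-222-3p: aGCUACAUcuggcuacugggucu
miR-221-5p: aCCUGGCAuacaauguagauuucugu

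The 3p arms have the seed GCUACAU in common. They were identical over the first 8 bases and at 11 of 23 positions compared without gaps, so that all differences lie behind the seed. Of the other mature miRNAs in RefSeq, miR-1928 (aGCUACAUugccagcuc) had the same seed, and it held 3 reads over all samples, with at most 1 in any sample. The seed of miR-221-5p, CCUGGCA, was shared with no other mature miRNA in that table. Both hairpins are given next, with the mature arms that have an entry in capitals, because the share of reads left on the hairpin rows differed widely between the loci.

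Mir221: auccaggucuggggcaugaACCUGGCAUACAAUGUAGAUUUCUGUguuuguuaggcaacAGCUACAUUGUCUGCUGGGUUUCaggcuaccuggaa
Mir222: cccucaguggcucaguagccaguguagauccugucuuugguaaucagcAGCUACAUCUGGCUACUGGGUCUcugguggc

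Mir221 lies at chrX:19146294-19146388 and Mir222 at chrX:19146893-19146971, both on the minus strand of GRCm38.p6. The hairpins are 95 and 79 bases long with 504 bases between them, and Mir222 comes before Mir221 in the direction of transcription. In the GENCODE annotation neither hairpin overlapped an exon or intron of another gene. The nearest other gene was Gm14636, a processed transcript on the same strand 10010 bases away.

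The values are CPM, read counts divided by the library size, scaled by the trimmed mean of M-values (TMM), and each was a whole number of reads once the scale was undone. Samples held 442718 to 1057147 reads on miRNA features (median 773271), and 3 reads corresponded to 2.98 to 6.38 CPM, which covers counting error only. The samples carry the label numbers 22 to 39. In most groups the sample numbered 22 to 27, 1 per group, stood apart from those numbered 28 to 39. In 5 of the 6 groups the pair from 28 to 39 was the closest of the 3 pairs in a chi-square comparison of reads. The exception was Ctrl, with chi-square per degree of freedom 33.69 for samples 28 and 34 and 32.69 for samples 22 and 34. Over all pairs it ran from 2.35 to 67.25. Of the myeloid markers, miR-142-5p was at 7254 to 12346 CPM and miR-142-3p at 1486 to 3318 CPM. The arms of miR-223 were low, with miR-223-3p at 48.5 to 178 CPM and miR-223-5p at 1.43 to 17.2 CPM (1 to 15 reads). Markers of other cells were at or near 0 for neurons, hepatocytes and muscle (at most 3 reads of miR-124-3p, miR-122-5p, miR-133a-3p or miR-206-3p in any sample). The epithelial markers disagreed, with miR-141-3p at 5525 to 8978 CPM and miR-200c-3p at only 4.30 to 26.7 CPM (3 to 15 reads). The endothelial marker miR-126-3p was at 72.1 to 161 CPM. The 7 such markers in the files summed to 5656 to 9087 CPM, most of it miR-141-3p. The sum was 6663 to 8081 CPM in Ctrl, 6574 to 7745 CPM in CBD and 6184 to 9087 CPM in THC. It was 8371 to 9042 CPM in LPS, 5656 to 7859 CPM in CBD+LPS and 6985 to 8335 CPM in THC+LPS. LPS thus stood wholly above Ctrl, and CBD+LPS and THC+LPS both stood wholly below LPS. The part of these markers in the results was not tested.

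The cluster was well covered by reads in these cells, though no other cluster was summed for comparison. Together the 6 features took 2.03 to 5.10% of all reads of a sample. The mean share was 2.91% ± 0.409 (SD, n = 3) in Ctrl, 2.48% ± 0.391 in CBD and 2.99% ± 0.593 in THC. It was 4.83% ± 0.411 with LPS, 4.37% ± 0.645 with CBD+LPS and 4.73% ± 0.107 with THC+LPS. Every sample given LPS (3.64 to 5.10%) was above every sample without it (2.03 to 3.45%). In bulk samples a change in the share of cells that carry a miRNA and a change in its amount per cell cannot be told apart.

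The reads fell very unevenly over the members. The mir-222 hairpin row held 55.8% of all cluster reads and miR-221-3p 29.3%. The share was 6.38% for miR-221-5p, 6.21% for miR-222-3p, 1.36% for miR-222-5p and 0.933% for the mir-221 hairpin. These are reads, not molecules per length. The mir-222 row, with a mean of 21277 CPM, ranked 2 of 855 hairpins, whereas mir-221 ranked 25. Among mature miRNAs miR-221-3p ranked 14 of 1279, miR-222-3p 52, miR-221-5p 53 and miR-222-5p 102.

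The loci differed in how much of their signal sat on the hairpin row. At the mir-222 locus the hairpin row took 88.1% of the reads over all samples, with 83.2 to 92.1% in single samples. At the mir-221 locus it took 2.55%, with 2.13 to 3.75% in single samples. Over the 121 hairpins that had both arms in the files and at least 1000 reads, the median was 2.98% and the quartiles were 0.797 and 7.58%. In that order mir-222 ranked 5 from the top and mir-221 ranked 65. How the authors assigned a read that matches both a hairpin and its mature arm is not given in the sources used here, so it is not known how many reads of the mir-222 row come from arms.

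The 3p arms are the guide strands of both loci in most tissues. For miR-221-3p the values of the groups without LPS, in the order of the label numbers, were 6620, 10246 and 7308 CPM in Ctrl, 6007, 8749 and 9300 CPM in CBD and 4967, 10505 and 11038 CPM in THC. They were 9746, 16249 and 17235 CPM with LPS, 6843, 15335 and 16137 CPM with CBD+LPS and 13047, 15339 and 16119 CPM with THC+LPS. The lowest sample of each group was the one numbered 22 to 27, and the groups with and without LPS overlapped through LPS sample 23 and CBD+LPS sample 26. The means were 8058 ± 1926 CPM in Ctrl and 14410 ± 4069 CPM in LPS (SD, n = 3).

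For miR-222-3p, which carries the same seed, the values without LPS were 1874, 2861 and 1954 CPM in Ctrl, 1405, 2302 and 2630 CPM in CBD and 1207, 2605 and 2845 CPM in THC. With LPS they were 1844, 2934 and 2977 CPM, with CBD+LPS 1481, 3278 and 3145 CPM, and with THC+LPS 2251, 2826 and 2811 CPM. The groups overlapped over most of their range, and the means of 2229 ± 548 CPM in Ctrl and 2585 ± 642 CPM in LPS (SD, n = 3) lay within each other's spread.

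The 5p arms are the strands that are mostly discarded. For miR-221-5p the values were 1780, 1895 and 1009 CPM in Ctrl, 883, 1262 and 1108 CPM in CBD and 1051, 1888 and 1617 CPM in THC. They were 2767, 4427 and 4203 CPM with LPS, 2075, 3229 and 3815 CPM with CBD+LPS and 2633, 3941 and 3571 CPM with THC+LPS. Every LPS-treated sample was above every sample without LPS, and the lowest, CBD+LPS sample 26 at 2075 CPM, stood just above the highest of the others at 1895 CPM.

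For miR-222-5p the values were 374, 477 and 260 CPM in Ctrl, 258, 417 and 346 CPM in CBD and 221.7, 479 and 512 CPM in THC. With LPS they were 490, 741 and 720 CPM, with CBD+LPS 546, 798 and 761 CPM, and with THC+LPS 506, 723 and 708 CPM. The overlap came from THC sample 37 at 512 CPM, which was above LPS sample 23 and THC+LPS sample 27.

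In 5 of the 6 groups a hairpin row had the smallest coefficient of variation of the members. For mir-221 the values were 302, 279 and 252 CPM in Ctrl, 186, 252 and 236 CPM in CBD, 235, 270 and 285 CPM in THC, 432, 522 and 513 CPM in LPS, 315, 434 and 499 CPM in CBD+LPS and 412, 493 and 462 CPM in THC+LPS. For mir-222 they were 17471, 17446 and 11030 CPM in Ctrl, 9218, 14279 and 14783 CPM in CBD, 10356, 16640 and 19695 CPM in THC, 27044, 31464 and 29840 CPM in LPS, 20469, 28401 and 30386 CPM in CBD+LPS and 25604, 29658 and 29208 CPM in THC+LPS. In both hairpins the LPS-treated samples and the others did not overlap. Without overlap in the 9 against 9 samples were thus 3 of the 6 members, mir-221, miR-221-5p and mir-222, against 13 of all 1363 features tested (0.954%).

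**Figure D1:**
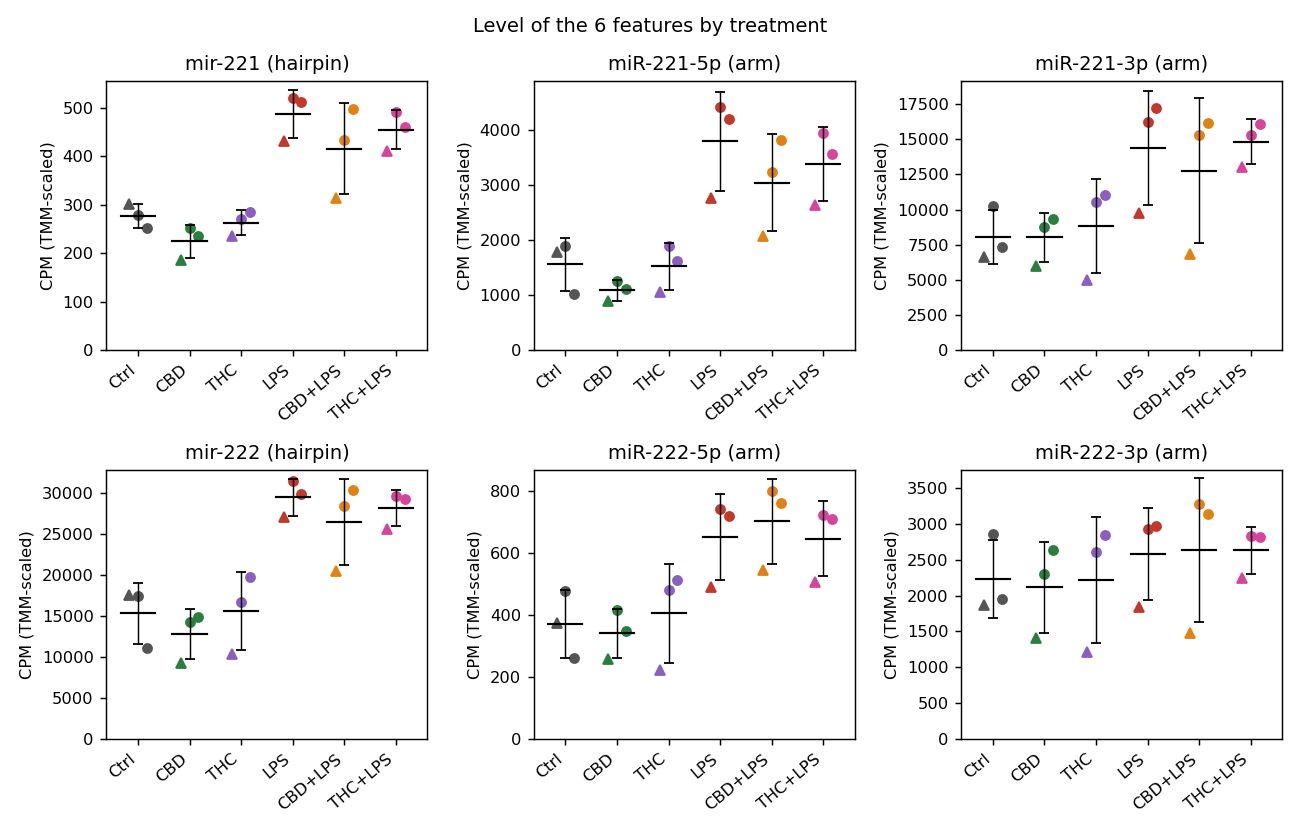
Level of each member (CPM after TMM scaling, linear axis from 0) in every sample of the 6 groups, with triangles for samples 22 to 27, circles for samples 28 to 39, bars for the group mean and whiskers for the SD (n = 3). All LPS-treated samples lie above all others for mir-221, miR-221-5p and mir-222, and the triangles are low for both 3p arms.

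On average samples 22 to 27 were lower than samples 28 to 39 in all 6 members. The Ctrl samples departed from this. Sample 22 was the highest of them for mir-221 (302 CPM) and mir-222 (17471 CPM). The lowest for miR-221-5p (1009 CPM) and miR-222-5p (260 CPM) was sample 34. The difference of means on the log2(CPM + 1) scale, early minus late, was -0.72 for miR-221-3p and -0.74 for miR-222-3p. It was -0.53 for miR-222-5p and -0.45 for miR-221-5p, and smaller for the hairpins (-0.34 for mir-222 and -0.25 for mir-221). As each set holds 1 or 2 samples of every group, the treatments were compared within each set too.

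The effect of LPS was asked first, over all 9 samples with LPS against all 9 without it. Of the 6 members, 5 rose: miR-221-5p, mir-222, miR-222-5p, mir-221 and miR-221-3p. The fold changes were 2.48 for miR-221-5p (95% confidence interval 1.95 to 3.16), 1.97 for mir-222 (1.61 to 2.41), 1.84 for miR-222-5p (1.42 to 2.37), 1.77 for mir-221 (1.51 to 2.08) and 1.68 for miR-221-3p (1.28 to 2.21). Only miR-222-3p, at 1.21-fold (0.913 to 1.60), did not pass the test among the members. Of all features tested 1.32% were called higher in this comparison, and the median log2 change was 0.85 over the members and 0.03 over all features.

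The test was limma on log2(CPM + 1) over all 1363 features with at least 10 reads, 6 members included, with Benjamini-Hochberg adjustment and a threshold of 0.1. Adjusted p was 3.42e-05 for miR-221-5p (log2 change 1.31, SE 0.17), 7.20e-05 for mir-221 (0.83, SE 0.11) and 0.000103 for mir-222 (0.98, SE 0.14). It was 0.00672 for miR-222-5p (0.88, SE 0.18), 0.0589 for miR-221-3p (0.75, SE 0.19) and 0.927 for miR-222-3p (0.27, SE 0.19).

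The call on miR-221-3p was the least firm of these. It was lost in limma without a mean-variance trend (adjusted p 0.170), and without any 1 of 10 samples: Ctrl 22 or 34, CBD 24, THC 25, LPS 29 or 35, CBD+LPS 32 or 38, and THC+LPS 33 or 39, where adjusted p was between 0.106 and 0.152. Within samples 28 to 39, where its spread was smaller, the log2 change was 0.77 and adjusted p was 0.000102 in limma. The other 4 called members were called under all 16 alternative settings and without any single sample. In samples 28 to 39 the log2 change was 1.44 for miR-221-5p, 0.95 for mir-222, 0.89 for mir-221, 0.87 for miR-222-5p and 0.25 for miR-222-3p. In samples 22 to 27 the same differences were 1.06, 1.03, 0.69, 0.88 and 0.32, and 0.71 for miR-221-3p.

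Other scalings kept the directions. With reads scaled by library size alone, by the relative log expression method (RLE), or by miR-191-5p and miR-103-3p, which the study used as references, the median of all features shifted from 0.03 to -0.08, 0.01 and -0.12. The 5 called members remained higher and called under each of the 3, and miR-222-3p stayed between 0.10 and 0.24. On the deposited scale miR-191-5p changed by 0.25 (adjusted p 0.708) and miR-103-3p by 0.11 (adjusted p 0.927) in limma.

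The same question was then asked in 3 separate comparisons that share no sample. In LPS against Ctrl, miR-221-5p rose 2.47-fold (log2 1.31, SE 0.30, adjusted p 0.0490) and mir-221 rose 1.76-fold (log2 0.81, SE 0.20, adjusted p 0.0816), 2 of 6 members against 0.954% of all features called higher. For mir-222 the log2 difference was 0.97 (adjusted p 0.103), for miR-222-5p 0.83 (0.762), for miR-221-3p 0.82 (0.784) and for miR-222-3p 0.21 (0.966). The count of 2 became 0 without LPS sample 29, LPS sample 35 or Ctrl sample 34. It became 1 without Ctrl 22 or 28, LPS 23, CBD 30 or 36, THC 31, CBD+LPS 32, or THC+LPS 33 or 39.

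In CBD+LPS against CBD, 3 members rose against 0.66% of all features. They were miR-221-5p (2.74-fold, log2 1.46, adjusted p 0.0220), mir-222 (2.09-fold, log2 1.06, adjusted p 0.0595) and mir-221 (1.83-fold, log2 0.87, adjusted p 0.0549). The log2 difference was 1.05 for miR-222-5p (adjusted p 0.272), 0.60 for miR-221-3p (0.581) and 0.28 for miR-222-3p (0.852). The count became 0 without CBD+LPS sample 32 or 38 and 1 without CBD sample 24 or 30.

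In THC+LPS against THC, 0 members passed the threshold in limma, against 0.734% of all features called higher, and 5 members reached an unadjusted p of 0.05. The log2 differences had sizes near those of the other comparisons, with 1.18 for miR-221-5p and 0.79 for mir-221 (adjusted p 0.112 in each), 0.90 for mir-222 (0.167), 0.83 for miR-221-3p (0.897), 0.75 for miR-222-5p (0.897) and 0.33 for miR-222-3p (0.937). DESeq2 on the recovered reads called 3 members in this comparison, of 14 features it called in all. edgeR called 1 member, of 12 features. The count of 0 became 2 without CBD+LPS sample 26 or 38, and 1 without LPS 23, CBD 24, Ctrl 34 or THC 37.

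Within samples 28 to 39 alone, with 2 samples per group, LPS against Ctrl called 5 members where 3.45% of all features were called. In CBD+LPS against CBD it was 5 members where 16.9% were called, and in THC+LPS against THC 4 members where 1.1% were called. The member not called in any of the 3 was miR-222-3p.

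**Figure D2:**
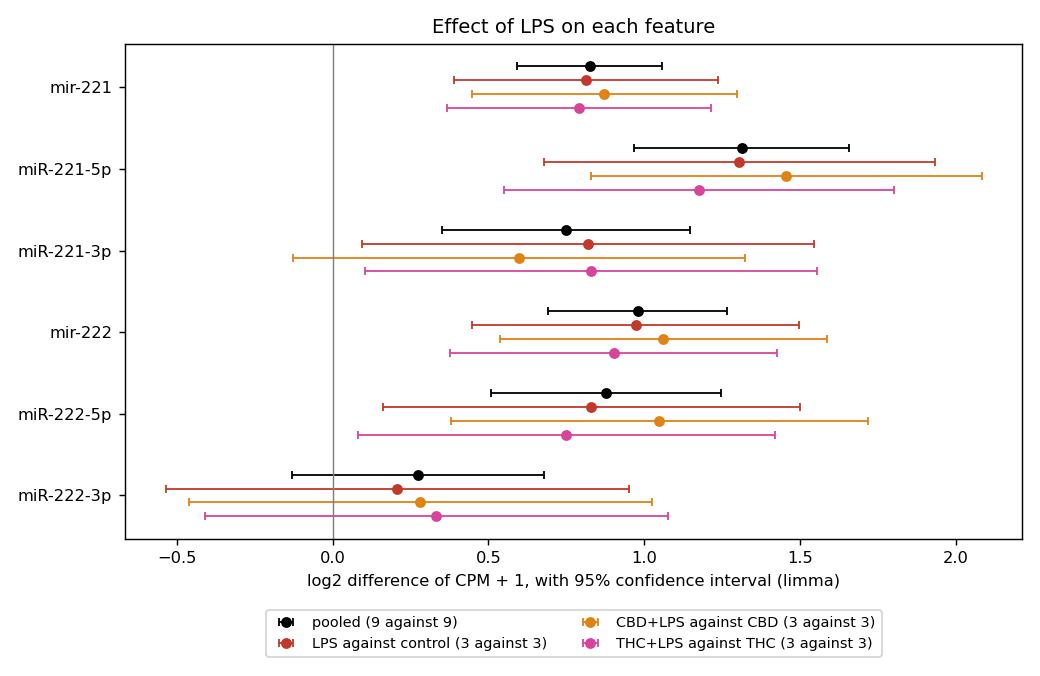
Log2 difference in CPM + 1 between samples with and without LPS, with its 95% confidence interval in limma, for each member over all samples (9 against 9) and in each of the 3 comparisons of 3 against 3. The pooled estimates run from 0.27 for miR-222-3p to 1.31 for miR-221-5p, and the 3 separate estimates of a member lie close together relative to their intervals.

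An F test across all 6 groups called 3 members: miR-221-5p (adjusted p 0.00467), mir-221 (0.00797) and mir-222 (0.0146). It called 1.76% of all features. The other adjusted p-values in limma were 0.240 for miR-222-5p, 0.526 for miR-221-3p and 0.9997 for miR-222-3p. With a covariate for samples 22 to 27 the test called 5 members, with miR-221-3p (adjusted p 0.00698) and miR-222-5p (0.0152) added. The share of all features called with that covariate is not given here, so the rise from 3 cannot be set against it. In samples 28 to 39 alone the test called the same 5, where 18.2% of all features were called. In the order of group levels all 3 LPS-treated groups stood above all 3 groups without LPS for each of the 6 members. For mir-221 and miR-221-5p the order was LPS, THC+LPS, CBD+LPS, Ctrl, THC and CBD. Of the 30 pairs of neighbours in these orders 0 differed beyond the spread (smallest adjusted p 0.331 in limma), and 4 reached an unadjusted p of 0.05, all of them between the lowest LPS-treated group and the highest other group.

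The cannabinoids were compared next. In limma over all 18 samples without a covariate, 0 members were called in each of the 4 comparisons of a cannabinoid with its own control. There 0 reached an unadjusted p of 0.05, and edgeR and DESeq2 called 0 members too. In resting cells, CBD against Ctrl gave lower estimates for all 6 members. The largest was -0.49 on the log2 scale for miR-221-5p (95% confidence interval -1.11 to 0.14), followed by -0.31 for mir-221 (-0.74 to 0.11) and -0.26 for mir-222 (-0.79 to 0.26). The remaining 3 were between -0.11 and -0.01. In limma 0.514% of all features were called in this comparison. With a covariate for samples 22 to 27 the interval of miR-221-5p was -0.97 to -0.0018 (p 0.0493, adjusted p 0.454 in limma). In samples 28 to 39 alone the estimates were -0.23 for miR-221-5p, -0.12 for mir-221 and 0.07 for mir-222, and between 0.06 and 0.11 for the remaining 3, so that only miR-221-5p and mir-221 of the members stayed below 0 there.

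THC against Ctrl gave estimates between -0.08 (mir-221, interval -0.50 to 0.35) and 0.08 (miR-222-5p, interval -0.59 to 0.75). Of all features 0 were called in limma here, with 46 at an unadjusted p of at most 0.05, and 0 in edgeR or DESeq2. In samples 28 to 39 alone all 6 estimates were above 0, from 0.07 for mir-221 to 0.49 for miR-222-5p. There miR-222-5p, mir-222 (0.38) and miR-221-3p (0.32) reached an unadjusted p of 0.0292, 0.028 and 0.029 in limma, with an adjusted p of 0.453 in each.

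In LPS-activated cells the question was whether pretreatment altered the level reached with LPS. CBD+LPS against LPS gave -0.34 for miR-221-5p (-0.96 to 0.29), -0.25 for mir-221 (-0.68 to 0.17), -0.23 for miR-221-3p (-0.95 to 0.50) and -0.17 for mir-222 (-0.70 to 0.35). THC+LPS against LPS gave -0.16 for miR-221-5p (-0.79 to 0.47) and values between -0.10 and 0.08 for the others. Limma called 0 of all features in either comparison, with 44 and 32 at an unadjusted p of at most 0.05, edgeR called 0 and DESeq2 called 1 in the first and 0 in the second. The interaction of LPS with CBD ran from -0.22 for miR-221-3p to 0.22 for miR-222-5p, and that with THC from -0.13 for miR-221-5p to 0.13 for miR-222-3p. Neither was called for a member, and over all features 0 were called in limma, edgeR or DESeq2, with 65 and 51 at an unadjusted p of at most 0.05 in limma. In samples 28 to 39 alone the interaction with THC was below 0 for all 6 members, from -0.54 for miR-221-5p to -0.18 for mir-221, with a smallest adjusted p of 0.620 in limma. The intervals of the 4 cannabinoid comparisons reached down to -1.11 and up to 0.81 on the log2 scale across the 6 members.

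CBD and THC are isomers with the same carbon skeleton, and in THC a ring is closed through an oxygen atom that CBD carries as a free hydroxyl group. At the same dose and time 0 of 12 tests (6 members in 2 settings) passed in limma, edgeR or DESeq2, and 0 reached an unadjusted p of 0.05 in limma. In resting cells CBD minus THC was -0.46 for miR-221-5p (95% confidence interval -1.09 to 0.17, adjusted p 0.50), -0.27 for mir-222 (-0.79 to 0.26) and -0.24 for mir-221 (-0.66 to 0.19). The other 3 members lay between -0.18 and -0.02. With LPS the difference was -0.31 for miR-221-3p (-1.03 to 0.42), -0.18 for miR-221-5p (-0.81 to 0.45) and -0.15 for mir-221 (-0.58 to 0.27). In resting cells 0.514% of all features were called between the compounds in limma. With LPS 0 were called in limma, edgeR or DESeq2, with 36 at an unadjusted p of at most 0.05 in limma. Within samples 28 to 39 miR-221-5p was called lower with CBD than with THC in resting cells (log2 difference -0.56, adjusted p 0.0821 in limma), where 19.6% of all features were called.

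**Figure D3:**
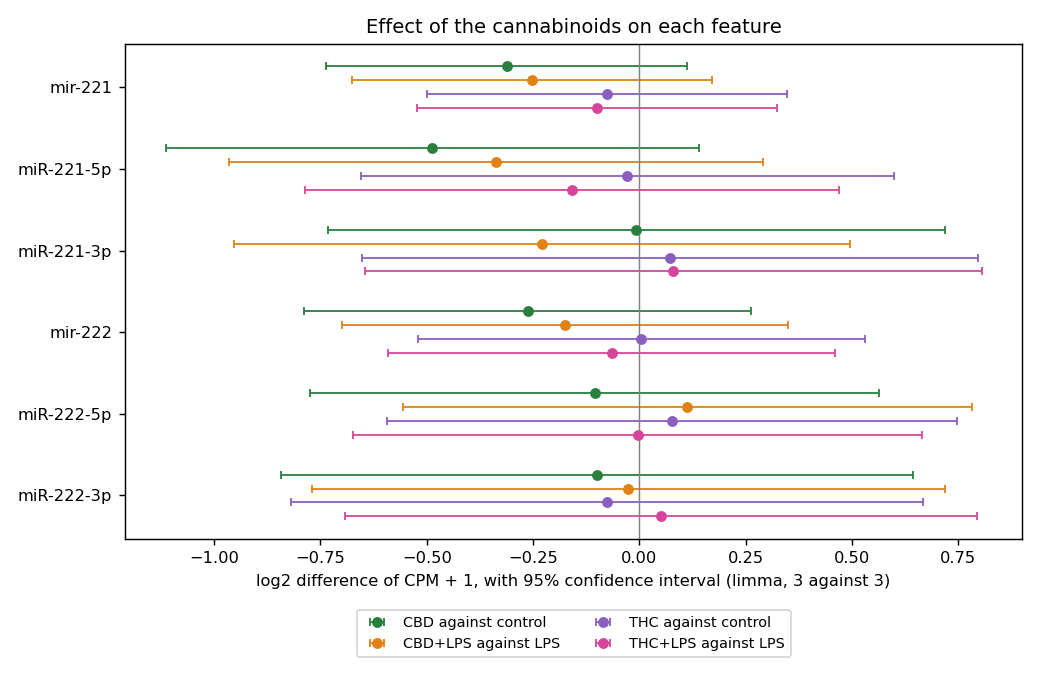
Log2 difference in CPM + 1, with its 95% confidence interval in limma (3 against 3 samples), for CBD or THC against control and for CBD+LPS or THC+LPS against LPS. Every interval includes 0, and the estimate farthest from 0 is that of CBD against control in miR-221-5p, at -0.49.

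Ratios between members were then taken within each sample, where the scale of the library cancels. They compare the reads on rows. The mir-222 hairpin row took 88.1% of the reads of its locus, and how many of these come from arms is not known. With LPS the 3p arm fell relative to the 5p arm at both loci. The ratio of miR-221-3p to miR-221-5p was 3.72 to 8.39 without LPS (median 6.80) and 3.30 to 4.95 with LPS (median 4.10). The ratio of miR-222-3p to miR-222-5p was 4.99 to 7.58 without LPS (median 5.51) and 2.71 to 4.44 with LPS (median 3.97). For miR-221 the ranges overlapped through Ctrl sample 22, at 3.72, and THC sample 25, at 4.72, whereas for miR-222 they did not overlap. The LPS effect was 0.676-fold for miR-221 (log2 -0.56, exact permutation p 0.0015, adjusted p 0.0063) and 0.658-fold for miR-222 (log2 -0.60, exact permutation p 0.00025, adjusted p 0.00131). These tests were two-sided and permuted samples within control, CBD and THC cells separately, and 0.00025 is the smallest p they can give. Adjustment was over 21 tests, 7 ratios by 3 treatments, with a threshold of 0.05.

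The direction was the same in each cannabinoid setting. For miR-221 the log2 effect of LPS was -0.49 without cannabinoid, -0.86 with CBD and -0.35 with THC. For miR-222 it was -0.62, -0.77 and -0.42. Within samples 22 to 27 the log2 effect was -0.35 for miR-221 and -0.57 for miR-222, and within samples 28 to 39 it was -0.67 and -0.62.

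Ratios between the loci moved as well. The ratio of miR-221-3p to miR-222-3p, the arms with a common seed, was 3.53 to 4.27 without LPS (median 3.80) and 4.62 to 5.79 with LPS (median 5.43), with no overlap. Its spread within a group was small, as in Ctrl with 3.53, 3.58 and 3.74 and in THC+LPS with 5.79, 5.43 and 5.73. The effect of LPS was 1.39-fold (log2 0.48, exact permutation p 0.00025, adjusted p 0.00131). It was 0.40 on the log2 scale in samples 22 to 27 and 0.51 in samples 28 to 39, although the arms differed between these sets by -0.72 and -0.74 on that scale. The ratio of miR-221-5p to miR-222-5p was 3.02 to 4.75 without LPS and 3.80 to 5.97 with it, and rose 1.35-fold (log2 0.44, exact permutation p 0.00025, adjusted p 0.00131). Thus the rows of both miR-221 arms gained on those of the miR-222 arms, which leave out any arm reads on the mir-222 hairpin row.

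The hairpin rows behaved otherwise. The ratio of mir-221 to mir-222 was 0.0145 to 0.0229 without LPS and 0.0153 to 0.0172 with LPS, and its LPS effect of -0.15 on the log2 scale did not pass the test (exact permutation p 0.0998, adjusted p 0.262). It passed without THC sample 37, where the effect was -0.20. The arms of miR-222 together, relative to their hairpin row, went from 0.129 to 0.201 (median 0.185) without LPS to 0.0863 to 0.144 (median 0.120) with LPS, a 0.660-fold change (log2 -0.60, exact permutation p 0.00025, adjusted p 0.00131). For miR-221 the same ratio was 25.6 to 45.8 without LPS and 28.3 to 42.7 with LPS, and the effect was 0.02 on the log2 scale (exact permutation p 0.916).

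In shares of the locus, the median share of miR-222-3p was 13.2% without LPS and 8.51% with LPS. The share of miR-222-5p was 2.22% and 2.16%, and that of the mir-222 hairpin 84.4% and 89.3%. At the other locus miR-221-3p went from 84.9% to 78.5% and miR-221-5p from 12.5% to 19.1%, while the hairpin stayed at 2.45% and 2.46%.

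**Figure D4:**
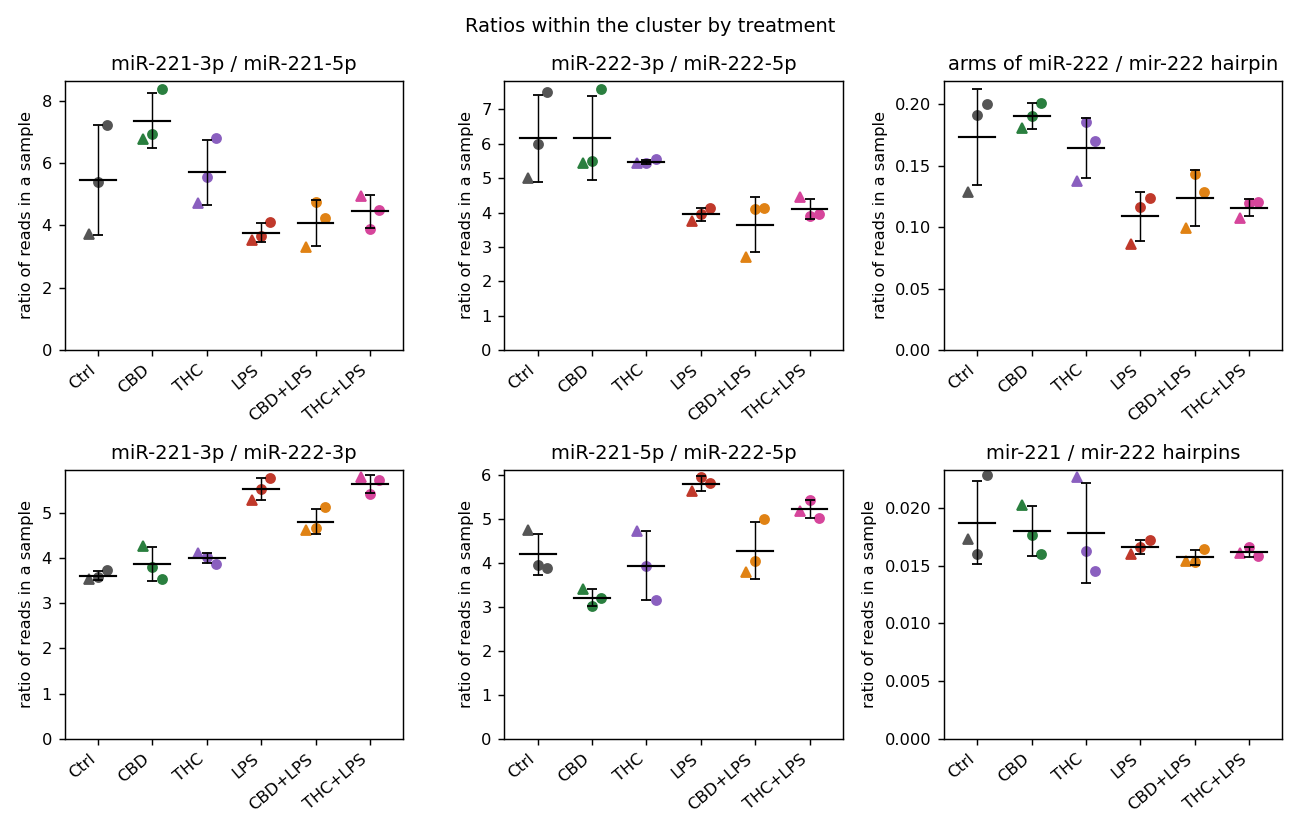
Ratio of reads within each sample for 6 pairs of members, by group (linear axes from 0), with triangles for samples 22 to 27, circles for samples 28 to 39, bars for the mean and whiskers for the SD (n = 3). Samples with and without LPS separate fully for miR-222-3p to miR-222-5p and for miR-221-3p to miR-222-3p, and mir-221 to mir-222 shows overlapping groups.

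CBD changed 1 of the 7 ratios. The ratio of miR-221-5p to miR-222-5p was 4.75, 3.97 and 3.88 in Ctrl and 3.42, 3.02 and 3.20 in CBD. It was 5.64, 5.97 and 5.83 in LPS and 3.80, 4.04 and 5.01 in CBD+LPS. All CBD samples were below their own controls in both settings. The CBD effect was 0.750-fold (log2 -0.42, exact permutation p 0.005, the smallest this test can give, adjusted p 0.0175). The call was lost when samples were permuted without regard to LPS (adjusted p 0.114). In samples 28 to 39 alone all CBD samples were again below their own controls and the effect was -0.36 on the log2 scale, with an exact permutation p of 0.0556, the smallest that 2 against 2 samples in 2 settings can give, so that no call was possible there. The other 6 ratios did not pass for CBD, with log2 effects between -0.07 and 0.29.

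THC passed for 0 of the 7 ratios in the exact permutation test, with 1 at an unadjusted p of at most 0.05. That was miR-221-3p to miR-222-3p, with a log2 effect of 0.09 (p 0.035, adjusted p 0.105). It passed without THC+LPS sample 33 (0.10) or LPS sample 35 (0.11). For miR-221-5p to miR-222-5p the THC effect was -0.13 (adjusted p 0.430), and it passed without THC sample 25 (-0.20).

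The agreement of the loci across samples was examined separately in samples without and with LPS, since these form separate clusters, on the log2(CPM + 1) scale. Whether this agreement exceeds that of other pairs of features was not tested. Without LPS, Pearson's r over 9 samples was 0.979 for the 3p arms (exact permutation p 2.2e-05, adjusted over 6 relations 6.61e-05), with Spearman's rho 0.917 (exact permutation p 0.00131). It was 0.846 for the 5p arms (p 0.00789, adjusted 0.00946, rho 0.800, p 0.0138, exact permutation) and 0.853 for the hairpins (p 0.00134, adjusted 0.00201, rho 0.917, p 0.00131, exact permutation). With LPS it was 0.963 for the 3p arms (exact permutation p 0.0012, adjusted 0.00201), with rho 0.683 (exact permutation p 0.0503). It was 0.778 for the 5p arms (p 0.0140, adjusted 0.0140, rho 0.567, p 0.121, exact permutation) and 0.981 for the hairpins (p 1.38e-05, adjusted 6.61e-05, rho 0.983, p 4.96e-05, exact permutation).

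The agreement was then computed without extreme samples and within samples 28 to 39. Without the 2 samples farthest from the median, r was 0.967 for the 3p arms without LPS and 0.913 for the hairpins with LPS. It was 0.759 for the 3p arms with LPS (exact permutation p 0.0911), 0.776 and 0.661 for the 5p arms without and with LPS, and 0.799 for the hairpins without LPS. The last 4, over 7 samples each, no longer passed after adjustment. Within samples 28 to 39, over 6 samples, r without LPS was 0.945 for the 3p arms, 0.888 for the 5p arms, above the 0.846 over all 9, and 0.709 for the hairpins. With LPS it was -0.166 for the 3p arms, -0.518 for the 5p arms and 0.893 for the hairpins, so that with LPS the positive relation of both pairs of arms held only with the 3 samples numbered 22 to 27 included. In those LPS-treated samples the arms spanned a narrow range, with miR-222-3p at 2811 to 3278 CPM and miR-222-5p at 708 to 798 CPM.

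**Figure D5:**
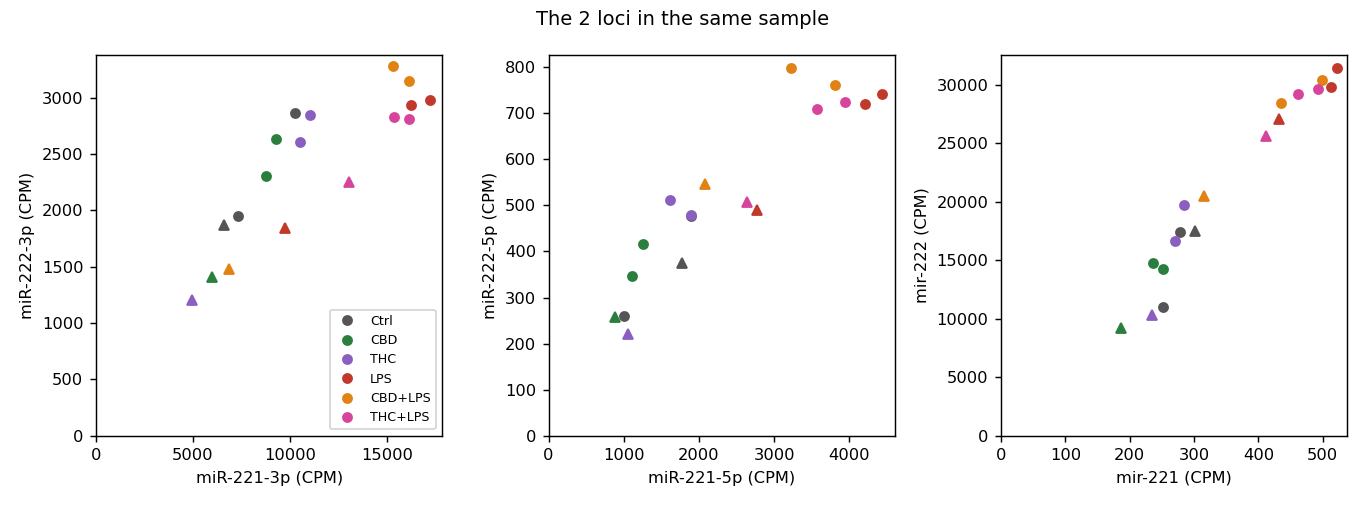
Each member of the miR-221 locus against its counterpart of the miR-222 locus in the same sample (CPM, linear axes from 0), with triangles for samples 22 to 27, circles for samples 28 to 39 and a colour for each group. With and without LPS, r is 0.981 and 0.853 for the hairpins, 0.963 and 0.979 for the 3p arms and 0.778 and 0.846 for the 5p arms. In samples 28 to 39 it is 0.893 and 0.709 for the hairpins, -0.166 and 0.945 for the 3p arms and -0.518 and 0.888 for the 5p arms. LPS-treated samples are shifted to the right of the others in both pairs of arms.

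The features whose levels followed the members most closely over all 18 samples were also taken, as a description, among 655 other features with at least 100 reads. The samples share depth, treatment and the numbering above, and Pearson's r is given without a test. For mir-221 the closest were miR-21a-3p (0.911), miR-21a-5p (0.893) and miR-145a-3p (0.887). For miR-221-5p they were miR-21a-3p (0.916), mir-21a (0.881) and miR-21a-5p (0.880), and for mir-222 they were miR-21a-5p (0.911), miR-21a-3p (0.905) and mir-21a (0.904). The members without overlap under LPS thus all had an arm of miR-21a in first place. The closest to miR-221-3p were miR-22-5p (0.920), mir-146a (0.896) and miR-320-5p (0.891), and to miR-222-5p miR-22-5p (0.916), miR-27b-5p (0.889) and miR-21a-5p (0.876). For miR-222-3p they were miR-23b-3p (0.981), miR-425-5p (0.958) and miR-301b-3p (0.956). Members were left out of these rankings. Between the loci, r over the same 18 samples was 0.888 for the 3p arms, 0.931 for the 5p arms and 0.961 for the hairpins. The value of the 3p arms was below the 3 closest features of either arm. Those of the 5p arms and hairpins were above the closest features of their members.

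As a frame for the LPS response, 18 arms of miRNAs linked to TLR signalling were counted: miR-155, miR-146a, miR-146b, miR-21a, miR-132, miR-212, miR-147, miR-9 and miR-187. Over all 9 against 9 samples 6 of the 18 rose and 0 fell in limma, where 1.32% of all features were called higher. The median log2 change was 0.30 over the list beside 0.03 over all features. The changes with the smallest p were those of miR-155-3p (4.84, adjusted p 5.98e-14), miR-155-5p (3.27, adjusted p 2.2e-11), miR-21a-3p (1.58, adjusted p 2.04e-08) and miR-146a-3p (2.15, adjusted p 1.62e-05). miR-155 and miR-146a are induced through NF-κB, and miR-146a limits TLR signalling. The 1.31 of miR-221-5p was thus smaller than each of these. In CBD or THC against Ctrl and in CBD+LPS or THC+LPS against LPS, 0 of the 18 were called in limma, edgeR or DESeq2, and between 0 and 2 reached an unadjusted p of 0.05 in limma. Of all features limma called 0.514% in CBD against Ctrl and 0 in the others, so these counts say little about the list.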

How the data were processed

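The authors sequenced small RNA on an Illumina sequencer, aligned reads to the mouse miRBase sequences with BWA, which allowed up to 10 mappings per read, and counted reads per hairpin and mature miRNA. They deposited 1 table per sample of CPM scaled by the TMM method of edgeR. The columns that the authors' TMM factor raised above the sum of unscaled CPM are classed as a score of the same kind, as deposited, and were treated in the same way. The scale was undone, and 100% of values were whole reads within 0.001.

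Tests used limma 3.58.1 in R 4.3.3 on log2(CPM + 1) over 1363 features with at least 10 reads, in place of the authors' edgeR, since the deposited values are not counts. A feature was called at a Benjamini-Hochberg adjusted p of at most 0.1. Ratios used reads + 0.5. Their tests, and those of correlations, were exact permutation tests (scipy 1.17.1). Groups followed the labels. edgeR 4.0.16 and DESeq2 1.42.0 on the recovered reads, other scalings, filters, pseudocounts and covariates were alternatives. The limma and edgeR fits were tested on simulated data.

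All 6 members are named. Other features named are those with an arm's seed, the 3 closest by Pearson's r, up to 4 of the LPS list by p, and the reference miRNAs. Members and lists were chosen with earlier results of these data known. All 18 samples entered each fit unless stated.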

Additional observations from a re-analysis of the deposited data

How the results depend on the processing

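No paired analysis was possible from the labels alone, because each label number was used for 1 sample and the labels do not say which samples were prepared together. The main tests were therefore unpaired. The numbers do run in 3 sets of 6, each with 1 sample of every group, and a term for these sets was tried after seeing the data. It gave 5 members in the F test, where 2.86% of all features were called. It gave 4 in each of LPS against Ctrl, CBD+LPS against CBD and THC+LPS against THC, where 1.25, 1.39 and 1.25% were called. The pooled LPS count stayed at 5 (2.42% of all features), and 0 members were called in the comparisons between compounds. With the set term, pooled miR-221-3p had SE 0.11 and adjusted p 0.000181 in limma. In CBD against Ctrl, miR-221-5p then had p 0.0465 and adjusted p 0.455 in limma. With 3 samples per group and 1 of them set apart in most groups, calls near the threshold depended on single samples and on the test. The counts of members called were as follows. The F test called 5, in place of 3, with a covariate for samples 22 to 27 and in samples 28 to 39 alone. LPS against Ctrl, at 2, gave 1 with a filter of 1 read, with hairpins or mature miRNAs tested alone and in edgeR, 0 without a mean-variance trend, 4 with the covariate and 5 in samples 28 to 39, and 0 to 3 without single samples. CBD+LPS against CBD, at 3, gave 0 without the trend, 5 in samples 28 to 39, and 0 to 4 without single samples. THC+LPS against THC, at 0, gave 2 with library size alone or edgeR's filter, 1 with RLE factors, a pseudocount of 2 CPM, hairpins or mature miRNAs alone or edgeR, 3 in DESeq2 or at p of at most 0.005 with 1.5-fold, 4 with the covariate or in samples 28 to 39, and 0 to 2 without single samples. CBD against THC gave 1 in samples 28 to 39, where 19.6% of all features were called. In those samples the share was 18.2% in the F test, 3.45% in LPS against Ctrl, 16.9% in CBD+LPS against CBD and 1.1% in THC+LPS against THC. For the covariate, filters, scalings, pseudocounts and single samples left out, the share of all features called is not given here. Over all features edgeR called 12 in LPS against Ctrl and 12 in THC+LPS against THC, and DESeq2 called 14 in the latter. The pooled LPS count stayed at 4 to 5 without single samples. A covariate for mir-6236, mir-6240 and mir-6243, which took 0.151 to 4.55% of reads, left each of the counts of members within 1.5 times.

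The CBD effect on miR-221-5p to miR-222-5p was -0.42 (adjusted p 0.114) in the exact permutation test without strata and -0.36 (adjusted p 0.194) in samples 28 to 39, where no p below 0.0556 was possible. Without single samples the THC effect on that ratio ran from -0.20 to -0.0537, that on miR-221-3p to miR-222-3p from 0.0723 to 0.105, and the LPS effect on mir-221 to mir-222 from -0.198 to -0.0905. With LPS, the correlation of the 5p arms was 0.449 with library size alone and 0.476 with the reference miRNAs, and in samples 28 to 39 it was -0.518, and that of the 3p arms -0.166, both of the opposite sign. Without LPS, that of the hairpins was 0.577 with library size alone and 0.709 in samples 28 to 39. Without the 2 samples farthest from the median, r was 0.759 for the 3p arms with LPS, 0.776 and 0.661 for the 5p arms without and with LPS, and 0.799 for the hairpins without LPS. The cause of these changes was not tested. Of 3475 values under alternatives 3303 stayed on the same side of their test or, for counts, within 1.5 times, and 158 differences that were not called changed sign.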
